A study of Mus musculus with 12 samples.

Results

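The AP-1 and immediate early genes described here are 10 genes of the mouse: Fos, Fosb, Fosl1 and Fosl2 of the Fos family, Jun, Junb and Jund of the Jun family, and Atf3, Egr1 and Ier3. They were chosen by gene symbol, and every array probe that carries the name or an accession of a member was kept. This gave 12 probes of 41174 on the array, for 10 of 21178 named genes, with a pair of probes each for Fosl2 and Junb and 1 probe for each of the other 8 genes. All 12 probes passed the filter on dim probes and were tested.

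AP-1 is a transcription factor made of paired basic leucine zipper (bZIP) proteins, in which Fos proteins pair with Jun proteins and Jun proteins also pair with each other or with ATF proteins. Immediate early genes are those that cells transcribe within minutes of a signal such as serum, a growth factor or stress, mostly from factors already in place, and their transcripts are often short-lived. In embryonic stem (ES) cells, pluripotent cells taken into culture from the early embryo, MAP kinase signalling is one of the inputs to these genes.

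The samples were mouse ES cells labelled undifferentiated, and ES cells labelled as differentiated by retinoic acid for 3 days. Retinoic acid, made from vitamin A, binds nuclear receptors that act on its target genes. Each group had 3 biological replicates and each replicate 2 technical arrays, so that 12 arrays of Cy3-labelled RNA, amplified once, were made from 6 samples. The labels give no strain, cell line, genotype, culture condition or dose, and no untreated culture kept for the same time is among the samples. Whether the 3 samples of each group were grown separately is not in the labels, so a p-value speaks of the spread among the samples at hand, which may be technical. Values are log2 of the quantile-normalized net intensity with 50 added, averaged over the technical arrays, and a change is the mean after retinoic acid minus the undifferentiated mean on that scale, which understates the change of dim probes. A probe was called when the limma test gave an adjusted p under 0.05 over the 26587 probes tested. Levels of different probes were not compared with each other, other than to pick the brightest probe of a gene or to describe the marker sums.

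Median net intensities of the arrays ran from 37.4 to 96.6, background limits from 8.50 to 51.6, and 53.8% to 85.0% of probes were above the limit. The arrays of replicate 3 had the highest medians in both groups, 67.0 to 96.6 against 37.4 to 57.8 in the other replicates. The small number of samples and arrays limits the precision. Of the ES cell markers tested, 9 of 10 fell, and 7 of 9 retinoic acid response markers rose, which accords with the labels. Of all named genes tested 17.6% rose and 12.3% fell. Markers of other cell types also moved with the treatment. Of the endoderm markers 8 of 12 rose, of the trophoblast and simple epithelial markers 7 of 10 rose and 1 fell, and of the feeder fibroblast markers 7 of 12 rose and 1 fell. The summed normalized intensity of the endoderm list was 3876 to 4725 in undifferentiated and 16200 to 21870 in retinoic acid samples, that of the trophoblast and epithelial list 4508 to 6324 and 56245 to 63345, and that of the fibroblast list 6355 to 15156 and 26489 to 33049. Of the neural markers 2 of 8 rose and 3 fell, and they summed to 7046 to 10432 and 3762 to 4170. Of the blood markers 0 of 3 rose, also at an unadjusted p under 0.05 by limma, and 1 fell. The blood markers summed to 383 to 487 and 195 to 237. These sums are weighted to the brightest probes and do not show how many genes of a list rose. After retinoic acid the brightest were Krt18, Krt8 and Krt19 in the trophoblast and epithelial list. In the fibroblast list they were Tagln, which rose, and Acta2, which was not called. Tfap2c of the former list changed by -3.08, and Eomes was not called. Thy1 of the latter changed by -2.07, Col1a1 was not called, and Postn, Lum and Fap were too dim to test. Elf5 and Lyz2 were above background on no array. The part of these markers in the changes below was not tested, and in whole cultures more or fewer cells of a type and more or less RNA per cell cannot be told apart.

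The members differ in the sequence next to their start sites, and the windows of 5 of them are shown because they hold a match to a motif searched. RefSeq promoters (build GRCm38.p6) matched 8 of the 10 members, and the 120 bases before each start were searched on both strands for 7 motifs: the ATF and CREB type TGACGTCA and its variant TGACGTA, the AP-1 type TGANTCA, the Jun and ATF type TGACATCA, the Egr type GCGGGGGCG, the TATA box TATAAA and the CArG box bound by SRF. Matches are in capitals and each window is written 5′ to 3′ in the direction of the gene. The windows are chr1:191183334-191183453 on the minus strand for Atf3, chr12:85473770-85473889 on the plus strand for Fos, chr5:32136352-32136471 on the plus strand for Fosl2, chr7:19310046-19310165 on the minus strand for Fosb and chr4:95052223-95052342 on the minus strand for Jun.
Atf3: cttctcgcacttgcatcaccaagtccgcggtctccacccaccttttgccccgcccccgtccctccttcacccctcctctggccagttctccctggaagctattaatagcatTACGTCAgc
Fos: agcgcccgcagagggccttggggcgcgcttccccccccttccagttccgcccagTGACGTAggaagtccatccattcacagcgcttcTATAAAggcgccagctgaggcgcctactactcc
Fosl2: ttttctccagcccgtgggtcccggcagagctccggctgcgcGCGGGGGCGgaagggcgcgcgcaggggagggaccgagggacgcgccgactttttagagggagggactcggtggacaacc
Fosb: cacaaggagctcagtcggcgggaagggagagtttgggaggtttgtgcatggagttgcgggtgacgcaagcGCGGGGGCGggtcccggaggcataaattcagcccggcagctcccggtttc
Jun: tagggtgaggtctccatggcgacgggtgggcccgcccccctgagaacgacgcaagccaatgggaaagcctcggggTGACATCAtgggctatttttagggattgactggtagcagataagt

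In Atf3 the letters TGACGTA lie on the opposite strand, 9 to 3 bases before the start, and read TACGTCA in the printed direction. In Fos the same letters lie 66 to 60 bases before the start, and a TATA box lies 33 to 28 bases before it. TGACGTA was found in 0.773% of the 32851 promoters of this length, and TATAAA in 6.34%. Fosl2 and Fosb share GCGGGGGCG, 79 to 71 and 50 to 42 bases before the start, which 1.84% of promoters held. Jun has TGACATCA 45 to 38 bases before the start, which 2.1% held. The windows of Ier3, Junb and Jund held none of the 7 motifs. No match overlapped another. The other motifs were found in 1.24% (TGACGTCA), 3.41% (TGANTCA) and 0.749% (CArG box) of promoters. A match is a description of these letters only.

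Among the 12 member probes 3 rose and 1 fell. The rises were those of Atf3, Jund and 1 probe of Fosl2, and the fall that of 1 probe of Junb. Of all probes tested 14.0% rose, 11.5% fell and 25.5% did either, so 3 rises and 1 fall among 12 probes is not far from the background. On the brightest probe of each gene, 3 of the 10 members rose, 0 fell and 7 were not called, against 17.6% higher, 12.3% lower and 30.0% either way among 15325 named genes. Brightest here means the highest mean over all arrays. For Fosl2 that probe was the brighter only after retinoic acid (7.35 against 6.13), and the dimmer in undifferentiated samples (5.80 against 6.63). It passed the filter only through the retinoic acid arrays, so the choice of probe favours a rise of Fosl2 in this count. At an unadjusted p under 0.05 limma gave 2 member genes lower (Egr1 and Junb), and 1 or 2 were called lower under other settings given with Junb and Egr1. The median change of the 10 genes was -0.28, against 0.0036 over all named genes. The samples of the groups did not overlap for 8 of the 12 probes, against 42.4% of all probes tested. The background counts depend on which samples are used. Of 3725 probes higher and 3052 lower, omitting retinoic acid replicate 1 left 2449 and 1642, and omitting replicate 3 of that group left 2365 and 1608. Omitting undifferentiated replicate 2 gave more, 4054 and 3648. With 75th percentile scaling 3245 were higher and 3731 lower, and with median scaling 3154 and 3189.

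**Figure D1:**
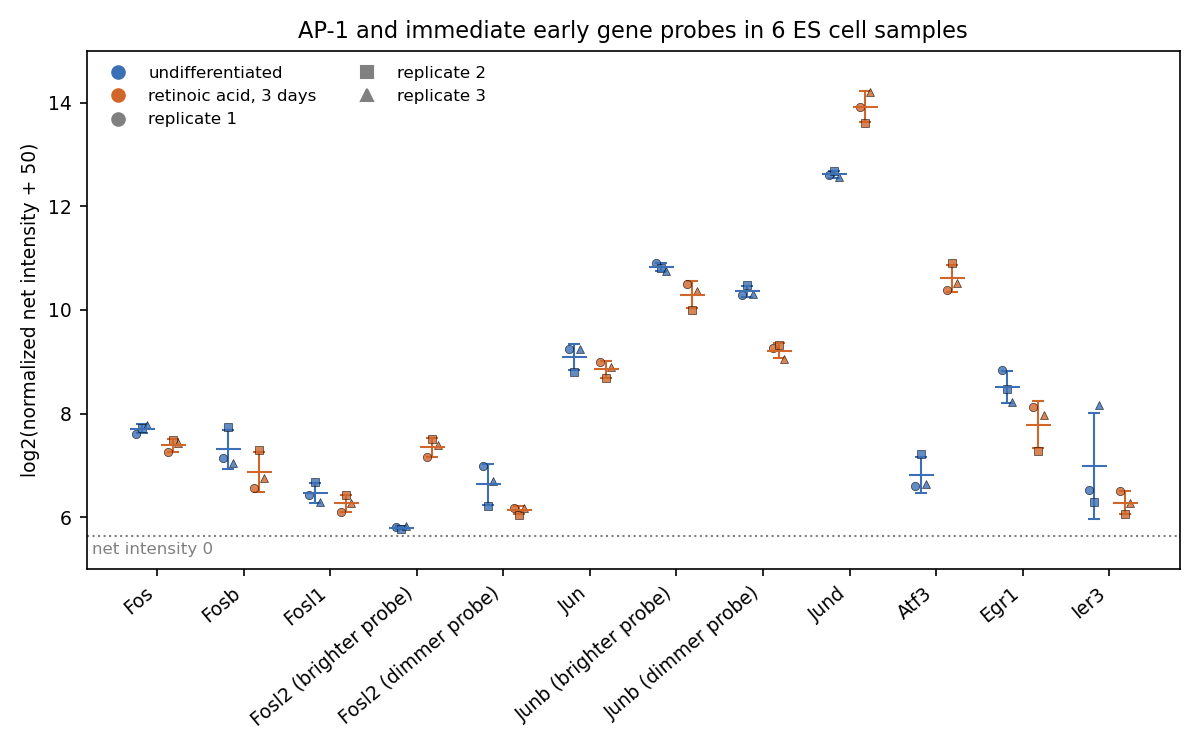
Log2 values of the 12 member probes (y axis, log2 of the normalized net intensity with 50 added) in the 3 undifferentiated samples (blue) and the 3 retinoic acid samples (orange), one column per probe. Symbols are the samples, bars are mean and SD, and the dotted line marks a net intensity of 0. Atf3 and Jund separate upwards, the dimmer Junb probe downwards, and the brighter Fosl2 probe upwards from the level of net intensity 0. For Ier3 a single undifferentiated sample lies at 8.17 while the other 5 samples lie between 6.07 and 6.53.

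In the Fos family 1 probe of 5 was called, a rise of Fosl2, and Fos itself was not called. Fos, the founding member and partner of the Jun proteins, was at 7.61, 7.73 and 7.78 in the undifferentiated samples and at 7.25, 7.48 and 7.43 after retinoic acid. The groups did not overlap, with every retinoic acid sample below every undifferentiated one. The change was -0.32 (SE 0.15, 95% confidence interval -0.66 to 0.03, limma adjusted p = 0.164). Before normalization the net intensities of Fos were 102, 109 and 201 in undifferentiated and 92.4, 100.5 and 215 in retinoic acid samples, which overlap.

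Fosb, the family member best known from long-lasting signals in neurons, was at 7.14, 7.74 and 7.04 in undifferentiated and 6.56, 7.29 and 6.75 in retinoic acid samples. The ranges overlapped, and replicate 2 was the highest of its group in both. The change was -0.44 (SE 0.26, interval -1.05 to 0.17, limma adjusted p = 0.271), and it was -0.22 without undifferentiated replicate 2 and -0.28 without retinoic acid replicate 1. Fosl1, which encodes Fra-1, was dim: 4 of 6 arrays of each group were above background. Its means were 6.47 ± 0.19 and 6.26 ± 0.16 (SD, n = 3 each), and the change was -0.21 (SE 0.17, interval -0.61 to 0.19, limma adjusted p = 0.424), or -0.10 and -0.13 with those same samples left out.

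Fosl2, which encodes Fra-2, was measured by 2 probes of the same accession, of which 1 rose and the other was not called. On the brighter probe the undifferentiated samples were at 5.80, 5.77 and 5.82 and the retinoic acid samples at 7.16, 7.52 and 7.39. None of the 6 undifferentiated arrays was above background and all 6 retinoic acid arrays were, so the undifferentiated group has only a bound. The rise was 1.55 (SE 0.16, interval 1.19 to 1.92, limma adjusted p = 0.000421), and without the added 50 it was at least 5.55-fold. For this bound each undifferentiated array was given the lowest signal that counted as above background there, or the probe's own signal where that was higher.

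On the other Fosl2 probe the samples were at 6.98, 6.21 and 6.70 undifferentiated and at 6.18, 6.05 and 6.17 after retinoic acid. This probe was above background on 5 of 6 undifferentiated and 1 of 6 retinoic acid arrays, the reverse of the first probe. The change was -0.50 (SE 0.21, interval -0.99 to 0.000018, limma adjusted p = 0.132). Its technical arrays differed by up to 1.33, in undifferentiated replicate 1, where net intensities were 105.7 and 20.5, against a largest difference of 0.15 on the brighter probe. Without undifferentiated replicate 2 this probe was called lower, at -0.71 (limma adjusted p = 0.0202). Without undifferentiated replicate 1 it was at -0.32, and it was not called. With the mean of the probes taken for each gene, 2 member genes were called higher in place of 3.

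In the Jun family Jund rose, Jun was not called and Junb fell on 1 of its 2 probes. Jund, which in many cells is kept at a steady level rather than induced by signals, was at 12.60, 12.68 and 12.56 in the undifferentiated samples. After retinoic acid it was at 13.92, 13.61 and 14.21, so that the lowest retinoic acid sample exceeded the highest undifferentiated one. The rise was 1.30 (SE 0.19, interval 0.87 to 1.73, limma adjusted p = 0.00212), a 2.47-fold difference. The retinoic acid samples were the more spread, with an SD of 0.30 against 0.06 (n = 3 each). Net intensities before normalization were 5059, 5847 and 7641 in undifferentiated and 11326, 9353 and 28578 in retinoic acid samples.

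Jun, which encodes c-Jun, the partner of Fos, was at 9.24, 8.81 and 9.24 in undifferentiated and 9.0, 8.68 and 8.89 in retinoic acid samples. The ranges overlapped, replicate 2 being the lowest of each group. The change was -0.24 (SE 0.18, interval -0.67 to 0.18, limma adjusted p = 0.386). It was -0.39 without undifferentiated replicate 2 and -0.15 without retinoic acid replicate 2. The rise measured for Jund lies outside this interval, but the changes of Jun and Jund were not tested against each other.

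Junb, a Jun protein that forms less active pairs than c-Jun on many sites, had a lower mean after retinoic acid on both of its probes, which share an accession. On the dimmer probe the undifferentiated samples were at 10.29, 10.47 and 10.30 and the retinoic acid samples at 9.27, 9.32 and 9.05. No sample of either group came near the other group, and the fall was called: the change was -1.14 (SE 0.15, interval -1.50 to -0.78, limma adjusted p = 0.00163), a ratio of 0.454. On the brighter probe the samples were at 10.90, 10.81 and 10.75 undifferentiated and at 10.51, 10.01 and 10.37 after retinoic acid. The groups did not overlap there either, but the change of -0.53 (SE 0.18, interval -0.93 to -0.12) had a limma adjusted p of 0.0639. That probe was called lower when arrays were scaled to the 75th percentile (-0.71, limma adjusted p = 0.0198), when they were scaled to the median (-0.68, limma adjusted p = 0.0225), and with all 12 arrays and the sample as a random block (limma adjusted p = 0.0425). The random block fit uses the same correlation of technical arrays for every probe. Its p-values can be too small where those arrays agree more closely than that.

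**Figure D2:**
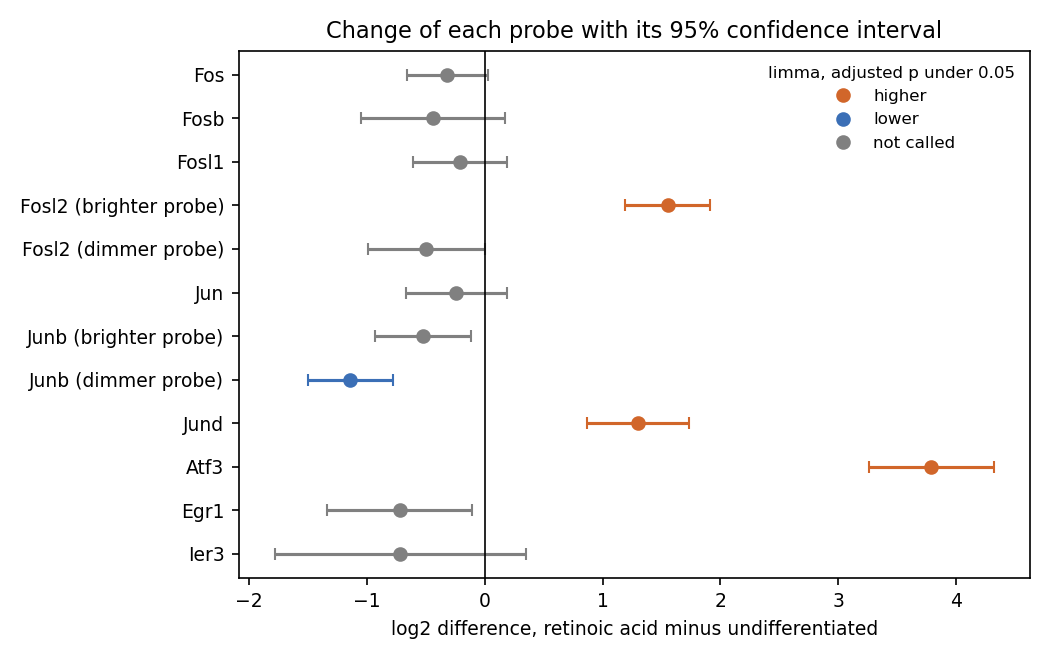
Change of each member probe (x axis, log2 difference of retinoic acid minus undifferentiated means) with its 95% confidence interval from the limma fit, one row per probe. Orange marks a probe called higher, blue one called lower and grey one not called. The intervals of Atf3, Jund and the brighter Fosl2 probe lie above 0, and all 9 other estimates are below 0, with that of the dimmer Junb probe called.

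Atf3 had the largest change of the 10 genes. It encodes a bZIP protein of the ATF family that pairs with Jun proteins and is known as a gene induced by many kinds of stress. The undifferentiated samples were at 6.59, 7.22 and 6.63 and the retinoic acid samples at 10.39, 10.90 and 10.53. All 12 arrays were above background, but the undifferentiated signal was dim. On technical array 1 of undifferentiated replicate 3 the net intensity was 51.9 against a limit of 51.6. Each retinoic acid sample was more than 3 units above the highest undifferentiated sample. The rise was 3.79 (SE 0.23, interval 3.26 to 4.32, limma adjusted p = 4.67e-05), a 13.8-fold difference on the scale with 50 added. The net intensities before normalization were 33.8, 68.4 and 59.3 in undifferentiated and 1052, 1469 and 2283 in retinoic acid samples. Of the 26587 probes tested, 69 rose by more. Technical arrays of a sample differed by at most 0.17.

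Egr1, a zinc finger transcription factor and a standard readout of ERK signalling, was at 8.83, 8.46 and 8.23 in undifferentiated and 8.12, 7.28 and 7.96 in retinoic acid samples. Every retinoic acid sample was below every undifferentiated one, but the margin between the nearest samples was small. The change was -0.72 (SE 0.26, interval -1.34 to -0.11, limma adjusted p = 0.0849) and was not called. Without retinoic acid replicate 2 it was -0.47. With all 12 arrays and the sample as a random block the limma adjusted p was 0.0171. That fit shares a correlation of technical arrays over all probes. The technical arrays of Egr1 differed by at most 0.08, against SDs among samples of 0.31 and 0.45, so that p may be too small. Net intensities before normalization were 284, 212 and 297 in undifferentiated and 202, 81.1 and 352 in retinoic acid samples, so that without normalization the highest value was that of a retinoic acid sample.

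Ier3, an early response gene linked to cell survival, was at 6.53, 6.29 and 8.17 in undifferentiated and 6.50, 6.07 and 6.27 in retinoic acid samples. The difference of the means rested on undifferentiated replicate 3, whose net intensity was 282.5 against 30.9 and 21.8 in the others of its group. The probe was above background on all 6 undifferentiated arrays and on 3 of 6 retinoic acid arrays. The change was -0.72 (SE 0.46, interval -1.78 to 0.35, limma adjusted p = 0.301), and without that sample it was -0.13 (limma adjusted p = 0.681). The arrays of that sample agreed, since technical arrays of this probe differed by at most 0.21.

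The 8 probes that were not called all had a lower mean after retinoic acid, and for 4 of them the groups did not overlap. Over all probes tested, called or not, the groups did not overlap for 42.4%. The share of all uncalled probes with a lower mean was not taken. On net intensity before normalization the groups did not overlap for 4 of the 12 probes, which were the same 4 that were called: Atf3, Jund, the brighter Fosl2 probe and the dimmer Junb probe. For the probes not called, the separation of the groups thus appeared only after the arrays were brought to one scale. The count on net intensity was not taken over all probes, so it has no background share beside it. Net intensities before normalization also carry the difference in brightness between arrays, with replicate 3 the brightest in both groups.

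The named genes nearest to Atf3 over the 6 samples, by the Euclidean distance of log2 values centred on each gene's mean among 14243 genes, were Gata3, Spsb4 and Wfikkn1. Their distances were 0.31, 0.43 and 0.51, and they rose by 3.60, 3.65 and 3.95. Gata3, a zinc finger factor of trophoblast and other lineages, is also on the trophoblast and epithelial marker list. Nearest to the dimmer Junb probe, with distances of 0.12, 0.13 and 0.16, were Ash2l, a subunit of histone H3 methyltransferase complexes, Alox12, a lipoxygenase, and Fxyd4, a regulator of the sodium pump. They changed by -1.22, -1.10 and -1.14. Fxyd4 was dim after retinoic acid, with a mean of 5.86, and its change was -2.30 or -3.26 with 10 or 1 added in place of 50.

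Of 53 other immediate early genes 45 were tested on their brightest probe, of which 13 rose, 9 fell and 23 were not called, with a median of 0.04. This is 28.9% higher and 20% lower, beside 17.6% and 12.3% of all named genes. The largest rises were those of Phlda1, a pleckstrin homology domain protein (3.74), Errfi1, a feedback inhibitor of the EGF receptor (2.73), and Ccn1, a secreted matrix protein (2.69). The largest falls were those of Klf2 (-3.85), Sgk1, a serum-induced kinase (-3.44), and Klf4 (-3.21). Klf2 and Klf4 are also on the ES cell marker list, being factors of the pluripotency network. A dimmer Klf2 probe, above background on all 12 arrays, was not called at 0.02, and a dim Sgk1 probe was not tested. The calls of these 6 genes held in every alternative run on them.

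**Figure D3:**
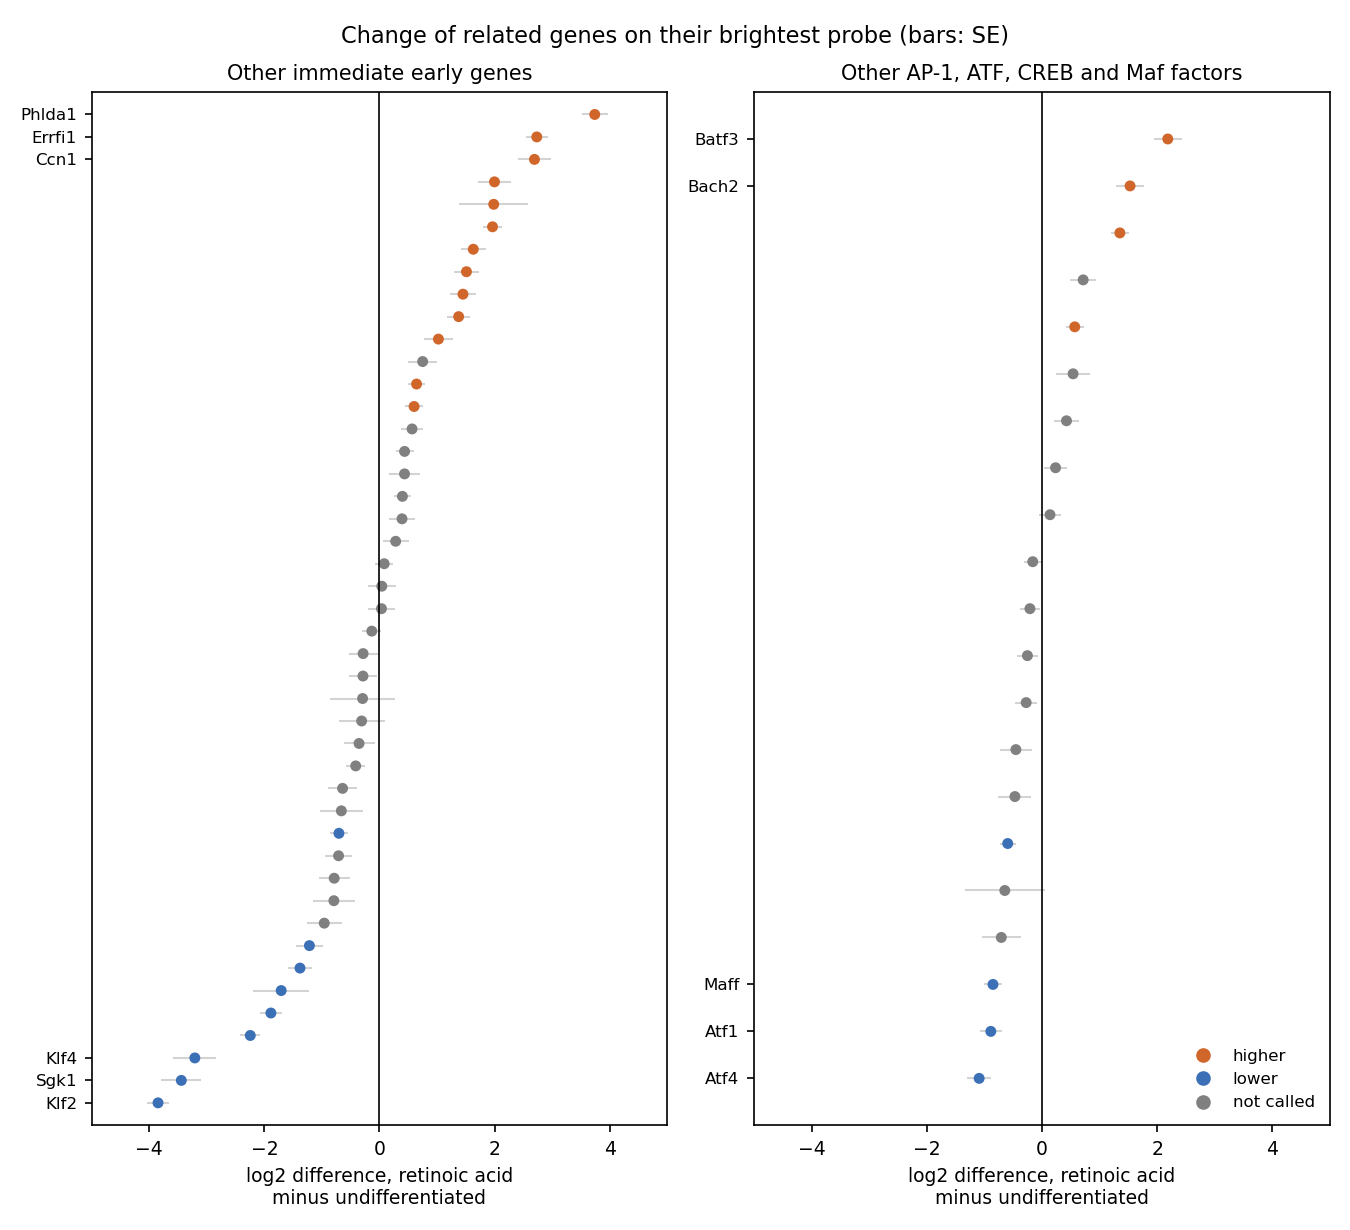
Change of the other immediate early genes (left) and of the other AP-1, ATF, CREB and Maf factors (right) on their brightest probe, 1 point per tested gene, with labels for genes named in the text and 1 factor counted in the text not drawn. The x axis is the log2 difference of retinoic acid minus undifferentiated means, bars are the SE, and colours mark calls as higher (orange), lower (blue) or not called (grey). Immediate early genes run from Klf2 at -3.85 to Phlda1 at 3.74, and the bZIP factors from Atf4 at -1.09 to Batf3 at 2.19.

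Among the other AP-1, ATF, CREB and Maf factors, the proteins with which members can pair or compete, 5 of 22 rose, 4 fell and 13 were not called, with a median of -0.18. This is 22.7% higher and 18.2% lower, beside 17.6% and 12.3% of all named genes. Batf3, a Jun partner of immune cells, rose by 2.19 and Bach2, a bZIP repressor, by 1.53. Only 2 of 6 undifferentiated arrays had Bach2 above background, and its change was 2.51 or 3.03 with 10 or 1 added in place of 50. Atf4, the factor of the integrated stress response that can induce Atf3, was lower by the limma test (-1.09, adjusted p = 0.00815). Atf1 changed by -0.89 and Maff by -0.85, both called lower. The Atf1 call was lost without retinoic acid replicate 3 (-0.75, limma adjusted p = 0.0524), and 2 factors were then called lower in place of 4.

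Of the ATF4, ATF3 and stress response genes, 2 of 17 rose, 2 fell and 13 were not called (median 0.06), while Atf3 itself rose. Each count is 11.8% of the list, beside 17.6% higher and 12.3% lower of all named genes. The heat shock gene Hspa1a rose by 1.22 and Dnajb1 by 0.59. Nupr1, a stress-induced chromatin protein, changed by -3.01 and Trib3, a pseudokinase induced by ATF4, by -1.93. The Dnajb1 call was lost when any sample other than undifferentiated replicate 2 was left out (limma adjusted p 0.0767 to 0.137), and its dimmer probe was at 0.13 and not called. With 75th percentile or median scaling Dnajb1 was at 0.26 or 0.30 and was not called (limma adjusted p 0.383 and 0.374). The rises then numbered 1 without undifferentiated replicate 1 or without any 1 retinoic acid replicate, and without undifferentiated replicate 3 the falls numbered 4.

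SRF, which with the ternary complex factors and the MRTF proteins drives Fos, Egr1 and other immediate early genes, and its cofactors gave 2 rises and 0 falls among 6 genes (median 0.30). The rises are 33.3% of a short list, beside 17.6% higher and 12.3% lower of all named genes. Srf rose by 0.86 and Fhl2, an SRF-binding LIM protein, by 2.41. Fhl2 was above background on 3 of 6 undifferentiated arrays, its change was 3.79 with 1 added in place of 50, and its other 2 probes were not tested. The Srf call was lost on leaving out replicate 1 of either group or replicate 3 of the retinoic acid group (limma adjusted p 0.0698 to 0.0912), which left 1 rise. Of the cytoskeletal genes known as SRF and MRTF targets 11 of 16 (68.8%) rose and 0 fell (median 1.86). They were led by Tagln (5.25), Myl9 (4.20) and Cnn1 (3.23), proteins of the contractile actin cytoskeleton, and 11 to 13 rose with any 1 sample left out. Tagln is also on the fibroblast marker list, and the part of fibroblast-like cells was not tested. In neither list was a gene lower at an unadjusted p under 0.05 by limma, and none was called lower in any alternative.

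Of the MAP kinase cascade genes, 6 of 33 rose, 3 fell and 24 were not called (median 0.13), which at 18.2% and 9.09% is near the 17.6% and 12.3% of all named genes. Rps6ka3, the kinase RSK2, rose by 2.80, Mapk13 by 1.65 and Mapkapk2 by 1.48. Map2k3 (-0.74), Mapk11 (-0.59) and Rps6ka5, the kinase MSK1 (-0.56), were called lower. The calls of Mapk11 and Rps6ka5 were lost without any 1 retinoic acid replicate or without undifferentiated replicate 3, and that of Rps6ka5 also without undifferentiated replicate 1 (limma adjusted p 0.0550 to 0.114). Both were also lost with median scaling (limma adjusted p 0.0558 and 0.0735), and that of Rps6ka5 with a robust fit and variance trend (0.0548). Without any 1 retinoic acid replicate 1 fall was called. The Mapkapk2 call was lost on leaving out replicate 1 or 3 of either group (limma adjusted p 0.0507 to 0.0732).

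Of the regulators of Jun and Fos proteins, 3 of 16 rose and 0 fell (median 0.29): Nfatc1 (0.94), Men1, the menin gene whose product binds JunD (0.89), and Cop1, a ubiquitin ligase for c-Jun (0.66). The rises are 18.8%, near the 17.6% of all named genes, of which 12.3% fell. None of the 16 was lower at an unadjusted p under 0.05 by limma, and 1 was called lower with 75th percentile scaling. No gene of this list was called higher on leaving out replicate 3 of either group or replicate 1 of the retinoic acid group, and 1 was on leaving out replicate 2 of the latter. Over the samples left out, limma adjusted p values of the lost calls ran from 0.0660 to 0.0968 for Nfatc1, 0.0512 to 0.0864 for Men1 and 0.0673 to 0.161 for Cop1. The Cop1 call was lost in 16 of 21 alternatives, among them 75th percentile and median scaling (0.36 and 0.39, limma adjusted p 0.296 in each), the random block (0.267) and the replicate block (0.0557), and its second probe was at 0.06 and not called. Only 3 of 6 undifferentiated arrays had Nfatc1 above background, and its call was lost with no filter (limma adjusted p = 0.0513), with the first technical arrays alone (0.60, limma adjusted p = 0.383) and with the random block (limma adjusted p = 0.509). With 10 or 1 added in place of 50 its change was 1.74 or 2.21, and its second probe was at 0.42 and not called.

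Of the genes known as AP-1 targets 7 of 24 rose, 2 fell and 15 were not called (median 0.16), against the 17.6% and 12.3% of all named genes. Krt18, a simple epithelial keratin, rose by 4.78, Plat, the tissue plasminogen activator, by 4.09, and Mmp2, a matrix metalloproteinase, by 2.0. Of the 7 that rose, 3 are also on lists of cell type markers: Krt18, Plat and Dcn, the last named after its values were seen. Timp1, an inhibitor of such metalloproteinases, was called lower (-0.93). It was not called on leaving out replicate 1 of either group or replicate 3 of the retinoic acid group (limma adjusted p 0.0686 to 0.0772), when 0 targets were called lower, and 4 targets fell with 75th percentile or median scaling.

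**Figure D4:**
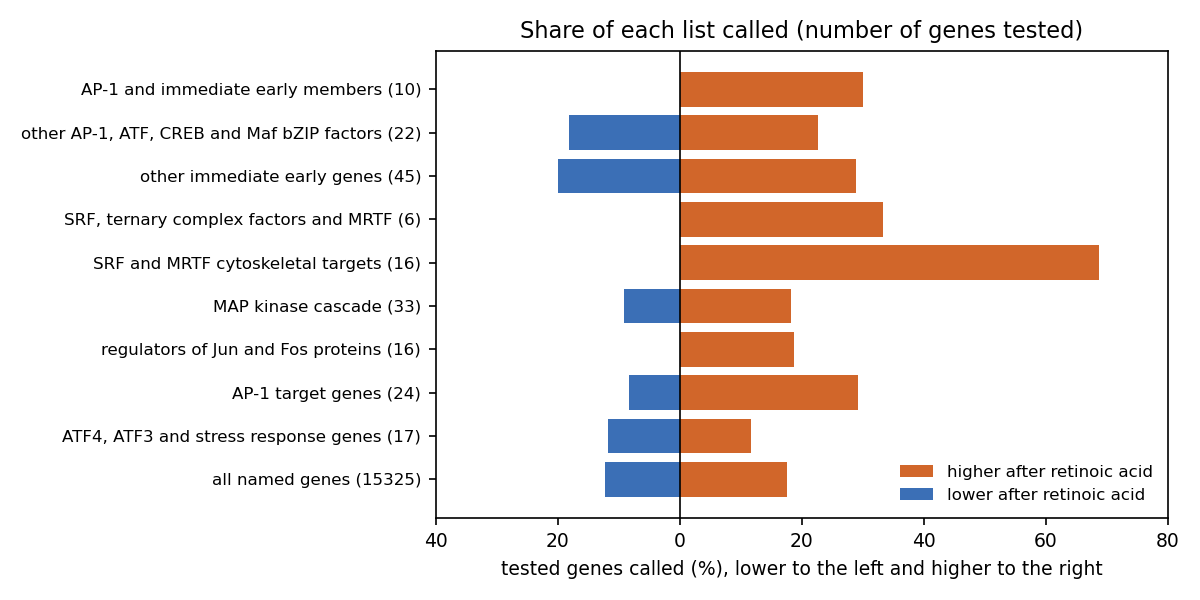
Share of the tested genes of each list called higher (orange, to the right) or lower (blue, to the left) after retinoic acid, in percent, on the brightest probe, with the number of genes tested in brackets. The bottom bar gives all 15325 named genes, at 17.6% higher and 12.3% lower. The members had 3 of 10 genes higher and 0 lower, and the cytoskeletal list 11 of 16 higher and 0 lower.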

How the data were processed

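Each of 12 deposited scanner tables holds, per the file headers, net mean intensity per spot on a linear scale, with local background already removed by a method not given in the sources used here. A deposited table of processed intensity for 41173 probes ranked the probes of each array identically and served as an alternative. On every array its log2 values correlated at 1, after rounding, with the normalized values used here. That alternative therefore nearly repeats the main values and could hardly change a call. R 2.15.0 and limma are the tools in the submitters' processing notes. After removal of control spots, 41174 probes were quantile-normalized across arrays, 50 was added and log2 taken. A probe was tested if it exceeded the 95th percentile of 27 control spots on 4 or more of the 6 arrays in 1 of the groups. These spots were taken as negative controls by their names, with a pattern that covers several kinds of control spot. Technical arrays were averaged. The comparison of 3 retinoic acid samples with 3 undifferentiated samples used limma 3.58.1 in R 4.3.3 (lmFit and eBayes, two-sided, no covariates), and p-values were adjusted by Benjamini-Hochberg over 26587 probes. The fit was tested on simulated data in which, unlike here, few probes changed. Of added changes of 0.5, 0.6% were called, of those of 1, 26.3%, and of those of 2, 79.2%. A probe not called is therefore not shown to be unchanged. Probes were named by accession through RefSeq (GRCm38.p6), or else by symbol. No source used here names the build of the array, so probes have no coordinates, and those printed are of the RefSeq promoter windows.

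The members and lists were chosen with earlier results of these data known. Genes named from a list are up to 3 called higher and 3 lower with the largest change and groups that do not overlap. A few genes chosen by that rule enter the counts but are not reported here. For technical array 2 of undifferentiated replicate 2, the file header carries the name of technical array 1. Alternatives changed the scaling (75th percentile, median), the filter (none, or all 12 arrays), the added value (1 or 10) and the threshold (an adjusted p under 0.01). Others took the mean of the probes per gene, only the first or second technical arrays, every array with sample as random block, or the authors' processed values. The remaining ones left out the array with the doubtful header, added the replicate block, used a robust fit with a variance trend, or left out each sample. Testing only the brightest probe of each gene was chosen after seeing the data. Python 3.11.15 and matplotlib 3.10.9 drew the figures.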

Additional observations from a re-analysis of the deposited data

How the results depend on the processing

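No change of a member or named gene reversed in the alternatives that were run on it. With the mean of a gene's probes, 1 of the 22 alternatives, only counts were taken, so the direction of single genes was not checked there. Atf3 (3.64 to 4.60), Jund (0.91 to 1.45), the brighter Fosl2 probe (1.47 to 4.11) and the dimmer Junb probe (-1.23 to -1.06) kept their calls in each that could be run on them. Of member genes on their brightest probe, 1 was called lower with 75th percentile scaling, 1 with median scaling, 1 with the mean of a gene's probes and 2 with all 12 arrays and a random block, against 0. Of member probes, 2, 2 and 3 were called lower with 75th percentile scaling, median scaling and the random block, and 1 to 2 with 1 sample left out, against 1. Counts from the random block can be too high, because its p-values can be too small for probes whose technical arrays agree closely. Over all probes 2121 were higher and 1432 lower at an adjusted p under 0.01, and 2365 to 4054 and 1608 to 3648 with 1 sample left out. With 75th percentile scaling 4 AP-1 targets and 1 regulator of Jun and Fos were lower, and with median scaling 4 targets. The random block gave 4 targets and 14 immediate early genes lower and 1 regulator higher. A filter on all 12 arrays gave 4 targets, 3 bZIP factors, 1 gene of the SRF list and 1 regulator higher, and no filter 1 regulator. At an adjusted p under 0.01, 3 bZIP factors rose and 2 fell, 1 SRF list gene rose, 0 regulators rose, 1 stress gene rose, 1 MAP kinase gene fell and 0 targets fell. Of stress genes 1 rose with median scaling, 1 or 10 added, the mean of probes, or the first technical arrays alone. Leaving out 1 sample gave, for lists whose count moved by more than 1.5 times, 0 to 3 targets, 1 to 3 MAP kinase genes, 2 to 5 bZIP factors and 2 to 4 stress genes lower, and 1 to 3 stress genes, 1 to 2 SRF list genes and 0 to 4 regulators higher. The replicate numbers were not taken as pairs. Deviations of same-numbered samples correlated at -0.05, 0.28 and 0.14, and those of different-numbered samples at -0.32 to 0.25. Replicate 3 arrays were the brighter in both groups, and whether same-numbered samples share a batch was not tested. With the replicate block 3624 probes were higher and 3045 lower, with 3 and 1 of the members. The block ended the Cop1 call (limma adjusted p = 0.0557) and no other call of a member or named gene. Dim probes (Fosl1, Fosl2, Ier3, and Atf3 in undifferentiated samples) are limited by signal over background. The cause of these shifts was not tested.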
